A study of Mus musculus with 8 samples.

Results

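Genes that let leukocytes hold on to the vessel wall were followed in mouse brain endothelial cells given corticosterone. They were chosen by name, 10 in all: the selectin genes Selp and Sele, the sialomucin genes Podxl and Cd34, the immunoglobulin-family genes Vcam1, Icam1, Icam2, Mcam and Alcam, and Cd47. All 10 were found by symbol among the 35852 genes of the deposited table, and all 10 were among the 13272 genes with enough counts to test. RNA was sequenced from bEnd3 cells, an established line of mouse brain endothelium. In the 4 corticosterone samples the cells received 5 µM corticosterone, the main glucocorticoid hormone of mice, for 24 h. The 4 medium samples were kept in culture medium, according to their titles and treatment field. All 8 samples were grown in DMEM with 10% FCS, and no inflammatory stimulus is named for any of them. Corticosterone appears in the protocol text of the medium samples too, and the labels give no vehicle. Whether the 4 samples of a group were grown as separate cultures is not stated. The p-values therefore speak only of the spread among these samples, which may be technical.

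Leukocytes leave the blood in steps. Selectins on the endothelium catch sugar-bearing mucins and let the cells roll, endothelial Ig-family molecules such as VCAM-1 and the ICAMs then bind leukocyte integrins and bring them to rest, and junctional molecules take part in the passage through the wall. In resting brain endothelium the inducible ones among these molecules are scarce, and cytokines raise Sele, Vcam1 and Icam1 through NF-kappaB. Glucocorticoids are known to restrain this inflammatory rise in many cell types.

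The libraries held estimated counts of 19.7 to 46.2 M (M is 1e+06). The deposited transcript tables of corticosterone replicates 1 and 2 used effective lengths equal to the transcript length plus 1, whereas the other 6 libraries used lengths 340 to 360 nt shorter at the median, so levels per length and splits between transcripts are not on 1 scale across all 8 libraries. Gene counts were therefore used for the comparison, though some genes stood apart in corticosterone replicates 1 and 2 at that level too. Endothelial marker genes were detected, with a summed level of 8078 to 8421 CPM (counts per 1e+06 of the scaled library) in corticosterone and 7553 to 8021 CPM in medium. Of 10 tested, 5 were higher and 3 lower. Egfl7, a marker not called, had 367 and 218 CPM in corticosterone replicates 1 and 2 and 165 and 173 CPM in replicates 3 and 4. Its medium level was 177 ± 12 CPM (SD). Of 13 leukocyte and platelet markers, 4 could be tested and 0 were called, with sums of 33.0 to 36.6 CPM in corticosterone and 33.1 to 35.6 CPM in medium. Pericyte and smooth muscle markers summed to 6.25 to 7.34 CPM in corticosterone and 8.33 to 8.89 CPM in medium, with 2 of 5 tested lower and Vtn at 0 in all libraries. Fibroblast markers summed to 5.75 to 6.69 CPM in corticosterone and 19.9 to 22.0 CPM in medium, and both that could be tested, Pdgfra and Col1a1, were lower. Epithelial markers summed to 0.158 to 0.217 CPM in corticosterone and 0.297 to 0.502 CPM in medium, with Cldn3 at 0 throughout and none testable. Neural and glial markers summed to 1.45 to 1.81 CPM in corticosterone and 0.516 to 0.905 CPM in medium, with 1 of 2 tested higher and Aqp4 and Olig2 at 0 throughout. The part of these marker differences in the results below was not tested, and in bulk samples fewer cells of a type and less RNA per cell cannot be told apart.

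With corticosterone 6 of the 10 adhesion genes changed, and Vcam1, Icam1 and Sele were not among them. Podxl, Selp, Mcam, Cd47 and Alcam rose, by 1.17-fold to 1.69-fold, and Cd34 fell to 0.831 of its medium level. Vcam1, Icam1, Icam2 and Sele did not pass the threshold, an adjusted p of 0.05 in edgeR's quasi-likelihood test with Benjamini-Hochberg adjustment over all genes tested. Across all tested genes 5327, or 40.1%, were called; 19.5% were higher and 20.6% lower. Calls were common in this comparison. The counts of called genes among the cell type markers above and in the lists below are to be read beside these shares. The median log2 fold change was 0.24 over the 10 genes and -0.0046 over all genes tested. The 6 called genes were those whose CPM did not overlap between the groups, which was so for 40.0% of all genes tested. The counts gave 2590 genes higher and 2737 lower. Limma on log2(TPM + 0.5), where both the measure and the test differ, gave 927 higher and 588 lower with the deposited TPM, and 305 higher and 669 lower with 1 effective length per transcript. Of the 6 calls among the adhesion genes, that of Cd34 was lost on deposited TPM (log2 -0.13). With 1 effective length those of Selp (0.34), Mcam (0.46), Alcam (0.08) and Cd47 (0.09) were lost, and Podxl and Cd34 were still called. Among the genes around them, Myrip, Plat, Myd88, B4galt1, B3gnt3, St3gal1, Fut4, Slc9a3r2, Rac1, Itgal, Plxnd1, Vcl and Esam also lost their calls with 1 effective length. So did C1galt1, whose sign turned, and, among the genes that fell, Trio, Ctnna1, Flna, Rab3d, Chst2, Tpst1 and Rhbdf1. On TPM in the 6 libraries of 1 effective length model all 6 adhesion genes were called. Over all genes, limma called 2743 of 12633 in those 6 libraries and 1515 of 12772 in 8 libraries on deposited TPM. The limma counts given for the lists below are to be read beside these totals.

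**Figure D1:**
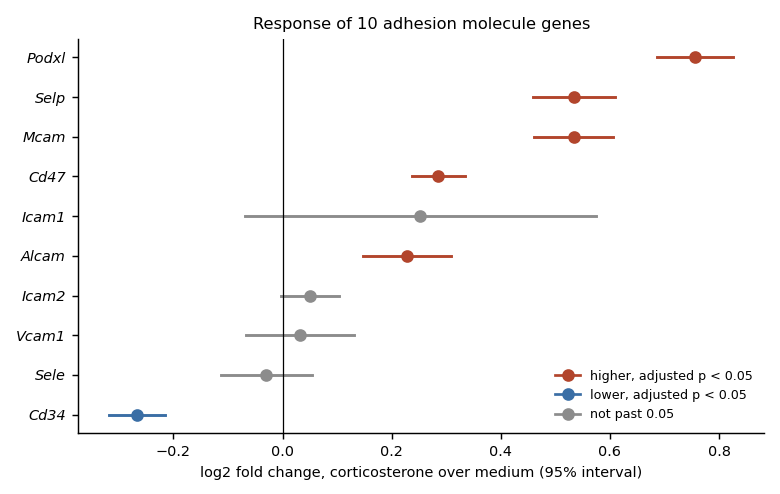
Log2 fold change of the 10 adhesion genes, corticosterone over medium, with the 95% interval of the edgeR fit as a line. Podxl lies highest at 0.76, Cd34 is the single gene called lower at -0.27, and the intervals of Icam1, Icam2, Vcam1 and Sele include 0.

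The endothelial selectins parted. P-selectin, the product of Selp (ENSMUSG00000026580.16, chr1:164115264-164150026 on GRCm38, plus strand), is kept in the storage granules of endothelial cells and catches rolling leukocytes through PSGL-1. Selp had 225.5, 220.5, 201.9 and 206.6 CPM in corticosterone and 147.2, 150.1, 144.4 and 148.6 CPM in medium. Every corticosterone library lay above every medium library. Selp rose 1.45-fold (95% interval 1.37 to 1.53; log2 0.53 ± 0.04 SE, edgeR adjusted p = 9.68e-08, n = 4 each). E-selectin, from Sele (ENSMUSG00000026582.6, chr1:164048234-164057677, plus strand), is made on demand in inflamed endothelium. Sele had 39.9, 40.1, 38.5 and 40.6 CPM in corticosterone and 42.8, 38.8, 39.7 and 41.0 CPM in medium, and these ranges overlap. Its fold was 0.980 (interval 0.925 to 1.04; edgeR adjusted p = 0.580).

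Selp and Sele lie 57.6 kb apart on the same chromosome. The log2 ratio of Selp to Sele averaged 2.42 ± 0.07 in corticosterone and 1.86 ± 0.07 in medium, a difference of 0.56 (SD, n = 4 each; exact two-sided permutation test, p = 0.0286, adjusted p = 0.0476 over the 5 pairs of genes compared). A p of 0.0286 is the smallest this design can give. Of the 31-base words in the annotated Selp transcripts, 87.5% occur in no other gene and 8.82% are shared with the predicted gene Gm16548, which is not among the genes tested.

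The stretches upstream of Selp and Sele are shown because the genes lie close together and responded differently, and that of Icam1 because it carries a match of the same kind as Sele. Each is the 250 bases before the gene's start in the RefSeq promoter table, read 5′ to 3′ on GRCm38.p6, and positions count from that start. For Icam1 the window ends at chr9:21015939, short of the start in the gene position given below, chr9:21015985. Capitals mark matches to GGANNTTCC, a kappaB-like pattern searched on both strands, and to TATAAA, searched on the gene's strand. The kappaB-like pattern was shaped after these sequences were seen.

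Selp (chr1:164115014-164115263, plus strand): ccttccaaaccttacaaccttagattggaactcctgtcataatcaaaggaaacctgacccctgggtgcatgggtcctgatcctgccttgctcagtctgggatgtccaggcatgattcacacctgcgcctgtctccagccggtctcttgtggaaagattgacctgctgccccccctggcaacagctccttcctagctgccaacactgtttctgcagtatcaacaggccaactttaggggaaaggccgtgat

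Sele (chr1:164047984-164048233, plus strand): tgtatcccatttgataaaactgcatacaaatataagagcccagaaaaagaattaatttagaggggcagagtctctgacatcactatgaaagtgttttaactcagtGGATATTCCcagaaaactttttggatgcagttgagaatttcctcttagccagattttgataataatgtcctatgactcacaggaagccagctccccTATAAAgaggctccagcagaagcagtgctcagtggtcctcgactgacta

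Icam1 (chr9:21015690-21015939, plus strand): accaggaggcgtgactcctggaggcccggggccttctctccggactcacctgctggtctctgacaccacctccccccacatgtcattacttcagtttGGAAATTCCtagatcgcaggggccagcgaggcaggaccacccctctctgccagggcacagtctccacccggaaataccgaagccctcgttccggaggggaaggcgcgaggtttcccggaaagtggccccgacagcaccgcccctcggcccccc

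The kappaB-like pattern lies at -145 to -137 in Sele and at -153 to -145 in Icam1, and 3.59% of 32851 mouse promoter windows of this length hold it. TATAAA lies at -49 to -44 in Sele and occurs in 7.59% of windows. The upstream window of Selp holds neither, and bases further upstream were not searched for any gene. The glucocorticoid response element core ACANNNTGT, held by 5.84% of windows, and the full palindromic response element, held by 0.00913%, were searched on both strands, as was the kappaB consensus, held by 3.90%. Those 3 are not in the windows of the 7 adhesion genes that the table covers, which are Selp, Sele, Icam1, Cd34, Mcam, Alcam and Cd47.

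P-selectin travels in Weibel-Palade bodies, the secretory granules that form around von Willebrand factor. Of 24 genes listed for these granules and their release, 22 could be tested, 10 rose and 4 fell, limma on TPM called 6 in 6 libraries and 7 in 8, and the median log2 fold change was 0.08. The 4 that fell included cargo and release genes. Vwf, whose product shapes the granule, had 113 ± 10 CPM in corticosterone and 267 ± 31 CPM in medium, a fold of 0.421 (edgeR adjusted p = 9.0e-05). Angpt2, a stored regulator of vessel stability, had a fold of 0.214, and Edn1, which encodes the vasoconstrictor endothelin-1, one of 0.306. Rab3d, a granule Rab protein, had a fold of 0.855, or -0.23 on the log2 scale. Limma on TPM did not call it, at -0.04 on deposited TPM and -0.23 in 6 libraries. Myrip, a linker that joins Rab27a on the granule to actin, rose, with 5.28 ± 0.28 CPM in corticosterone and 1.13 ± 0.34 CPM in medium (4.57-fold, edgeR adjusted p = 1.1e-06). Plat, tissue plasminogen activator, rose 1.46-fold, close to the 1.45-fold of Selp. P-selectin mRNA and the mRNA of its granule's main protein moved in opposite directions in the same libraries.

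**Figure D2:**
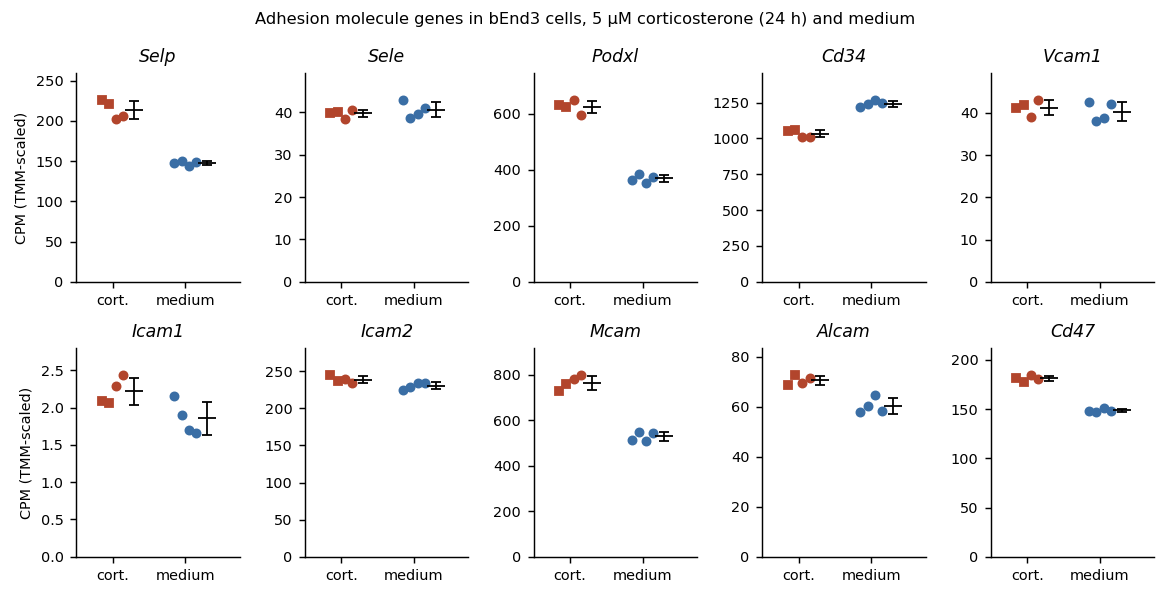
CPM of each adhesion gene in every library, corticosterone at the left and medium at the right of each panel, with mean ± SD beside the points and squares for the corticosterone libraries of the other effective length model. The groups are apart for Selp, Podxl, Cd34, Mcam, Alcam and Cd47, and overlap for Sele, Vcam1, Icam1 and Icam2.

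The integrin ligands of firm arrest showed no called change at the level of the gene. VCAM-1 binds the integrin VLA-4 on lymphocytes and monocytes. Vcam1 (ENSMUSG00000027962.14, chr3:116109949-116129688, minus strand) had 41.1, 42.0, 39.0 and 43.0 CPM in corticosterone and 42.5, 38.0, 38.9 and 42.0 CPM in medium. The groups overlap, and the interval of the fold was narrow, from 0.955 to 1.10 around 1.02 (edgeR adjusted p = 0.618). ICAM-1 and ICAM-2 bind LFA-1, the first inducible and the second constitutive in endothelium. Icam1 (ENSMUSG00000037405.8, chr9:21015985-21028817, plus strand) had the fewest counts of the 10, with 2.09, 2.06, 2.29 and 2.43 CPM in corticosterone and 2.16, 1.90, 1.70 and 1.67 CPM in medium. The highest medium library lay within the corticosterone range. The fold of 1.19 had an interval of 0.953 to 1.49 (edgeR adjusted p = 0.200), so a change of that size was not resolved at this depth. For Icam1, 85.2% of the 31-base words occur in no other gene and 11.2% are shared with the predicted gene Gm47079.

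Icam2 (ENSMUSG00000001029.15, chr11:106377656-106388075, minus strand) had 244.3, 236.7, 238.8 and 233.7 CPM in corticosterone and 224.5, 229.0, 233.4 and 234.2 CPM in medium. The lowest corticosterone library fell inside the medium range, and the fold of 1.04 had an interval of 0.998 to 1.07 (edgeR adjusted p = 0.127). Beside Icam1 on chromosome 9 lie Icam4, 0.555 kb away, and Icam5, a further 1.48 kb on. Neither passed the test: Icam4 had 0.541 ± 0.36 CPM in corticosterone and 0.474 ± 0.18 CPM in medium, and Icam5 had 1.40 ± 0.22 and 1.10 ± 0.17 CPM in those groups (SD, n = 4 each). The differences in response between Icam1 and Icam2, 0.21 on the log2 scale, and between Icam1 and Vcam1, 0.23, did not pass (exact two-sided permutation tests, p = 0.143 each).

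Vcam1 counts divided differently between its transcripts in the corticosterone libraries, a pattern that was noticed in the data and that most of the tests run on it did not call. A pair of coding transcripts carries most of the counts, and another, Vcam1-202, annotated without a stop codon, held 2.68 to 15.03% in corticosterone and 0 to 3.63% in medium. Its share was highest in corticosterone replicates 1 (7.52%) and 2 (15.03%), the libraries of the other effective length model, and was too low to be tested. Vcam1-201 has 9 exons and 739 codons and encodes the full receptor. Vcam1-203 has 5 exons and 345 codons; it shares exons 2 to 4 with Vcam1-201 and then ends in an exon of its own. The coding sequences across the point where they part are shown because they are what tells the transcripts apart. Lower case marks the last 30 bases of the shared exon 4 (chr3:116124383-116124412), and capitals mark the 90 coding bases after it, at chr3:116123704-116123793 in Vcam1-203 and chr3:116120984-116121073 in Vcam1-201, all on GRCm38, minus strand.

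Vcam1-203: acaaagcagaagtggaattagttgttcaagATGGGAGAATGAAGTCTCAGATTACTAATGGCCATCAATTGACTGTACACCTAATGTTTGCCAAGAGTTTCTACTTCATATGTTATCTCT

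Vcam1-201: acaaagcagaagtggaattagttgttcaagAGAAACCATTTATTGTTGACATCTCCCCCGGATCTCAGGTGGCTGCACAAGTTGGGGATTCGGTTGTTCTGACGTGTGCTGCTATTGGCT

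Vcam1-201 held 53.5, 58.0, 56.7 and 56.7% of the gene's estimated counts in corticosterone and 70.5, 70.4, 66.2 and 75.0% in medium, with no overlap. That share differed with p = 0.0286 by the exact two-sided permutation test, which is the smallest p possible, and with an adjusted p of 0.279 over the 13 transcript shares tested. Vcam1-203 held 37.1, 25.7, 36.3 and 38.2% in corticosterone and 24.8, 26.9, 28.3 and 23.4% in medium; corticosterone replicate 2, where Vcam1-202 held its highest share, lay among the medium libraries (exact permutation p = 0.0857, adjusted p = 0.279). Taken as Vcam1-203 over the pair, a ratio added after the data were seen, the share averaged 37.7 ± 4.75% in corticosterone and 26.8 ± 2.60% in medium, a difference of 10.9 percentage points (SD, n = 4 each; exact permutation p = 0.0286). Without corticosterone replicates 1 and 2, the libraries of the other effective length model, the difference was 12.8 points, where the smallest possible p is 0.133.

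The fit across all transcripts gave Vcam1-201 a log2 fold change of -0.29 (edgeR adjusted p = 0.218) and Vcam1-203 one of 0.45 (edgeR adjusted p = 0.244), neither past the threshold. In the 6 libraries of 1 effective length model Vcam1-203 was called, at 0.54 (edgeR adjusted p = 0.0275), and Vcam1-201 was not, at -0.31 (adjusted p = 0.177). Without corticosterone replicate 2 alone, Vcam1-203 was also called (0.56, edgeR adjusted p = 0.0370). A test of transcript use across all genes, edgeR's diffSpliceDGE, also added after the data were seen, did not call Vcam1: its adjusted p for the gene was 0.296 over 8 libraries and 0.451 over 6.

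**Figure D3:**
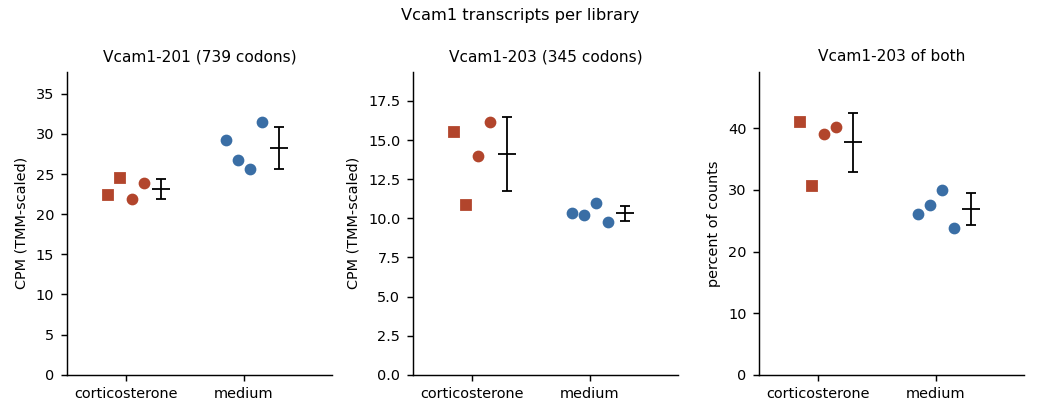
CPM of both main Vcam1 transcripts and the percentage of Vcam1-203 among the counts of both, in every library, with mean ± SD; squares are the corticosterone libraries of the other effective length model. Vcam1-201 lies lower in all 4 corticosterone libraries, and corticosterone replicate 2, at 30.7%, lies nearest to the medium libraries, which span 23.8 to 29.9%.

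Among the 47 annotated transcripts of the 10 genes, 33 were tested in 8 libraries and 3 were called, against 3.15% of all transcripts tested (1.79% higher and 1.36% lower). In the 6 libraries of 1 effective length model 9 of 35 were called, against 5.24% of all (2.70% higher and 2.54% lower). The 3 were Podxl-201, Selp-205 and Cd34-202, each the main or a main transcript of its gene. The call of Cd34-202 (edgeR adjusted p = 0.0385) held in 2 of 8 fits with 1 library left out. It was also lost with no filter and with replicate number as a block, and Selp-205 lost its call with that block. Several splits stood apart in corticosterone replicates 1 and 2. Mcam-202, whose coding sequence has 606 codons against 648 in Mcam-201, held 50.2% of Mcam counts in corticosterone replicate 1 and 13.4 to 17.8% in the other corticosterone libraries. Cd34-202, with 325 codons against 382 in Cd34-201, held 44.6% of Cd34 counts in corticosterone replicate 2 and 56.1 to 58.3% in the other 3. The part of the effective length model in these splits was not tested.

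Of 30 genes on the NF-kappaB route to adhesion genes, 29 were tested, 9 rose and 7 fell, limma on TPM called 8 in 6 libraries and 6 in 8, and the median log2 fold change was -0.03. Nfkbia, the inhibitor that holds NF-kappaB in the cytoplasm, rose 1.88-fold, with 94.4 ± 3.6 CPM in corticosterone and 50.1 ± 0.81 CPM in medium (edgeR adjusted p = 2.0e-10). Myd88, the adaptor below Toll-like and interleukin-1 receptors, rose 1.34-fold. Il1r1, the interleukin-1 receptor, fell to 0.553 of its medium level and the AP-1 gene Jun to 0.584. These upstream genes moved while Vcam1, Icam1 and Sele did not pass the test.

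The sialomucins moved in opposite directions. Podocalyxin, from Podxl (ENSMUSG00000025608.9, chr6:31519488-31563981, minus strand), and CD34 are long, heavily sugared and negatively charged proteins of the luminal surface. They can keep cells apart, and with the right sugars they can serve as selectin ligands. Podxl had 630.2, 624.9, 648.2 and 596.2 CPM in corticosterone and 365.5, 384.8, 354.3 and 375.1 CPM in medium. The lowest corticosterone library lay well above the highest medium library. Podxl rose 1.69-fold (interval 1.61 to 1.77; log2 0.76 ± 0.03 SE, edgeR adjusted p = 1.65e-09), and 91.5% of tested genes changed less in size. Cd34 (ENSMUSG00000016494.9, chr1:194938819-194961279, plus strand) had 1055, 1055, 1009 and 1011 CPM in corticosterone and 1216, 1241, 1264 and 1245 CPM in medium. Every corticosterone library lay below every medium library, and Cd34 fell to 0.831 (interval 0.803 to 0.861; log2 -0.27 ± 0.02 SE, edgeR adjusted p = 1.53e-06).

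The log2 ratio of Podxl to Cd34 averaged -0.72 ± 0.06 in corticosterone and -1.75 ± 0.06 in medium. The difference of 1.02 was the largest of the 5 pairs (exact two-sided permutation test, p = 0.0286, adjusted p = 0.0476).

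Podocalyxin and the ICAMs are anchored to actin through the scaffold protein NHERF2 and the ezrin, radixin and moesin proteins. Of 22 such linker and docking genes, all tested, 8 rose and 5 fell, limma on TPM called 7 in 6 libraries and 4 in 8, and the median log2 fold change was 0.03. Slc9a3r2, which encodes NHERF2, rose 1.42-fold, with 456 ± 8.5 CPM in corticosterone and 320 ± 7.8 CPM in medium (edgeR adjusted p = 6.8e-09). Its relative Slc9a3r1, which encodes NHERF1, fell to 0.740. Rac1, a GTPase of the docking structure, rose 1.18-fold. Trio, an exchange factor for Rac1 and RhoG, fell to 0.751. Flna, the gene of a filamin that links ICAM-1 to actin, fell to 0.936, and the catenin gene Ctnna1 fell to 0.894. By limma on deposited TPM, Flna had a log2 fold change of 0.08 and Ctnna1 one of -0.02, and neither was called. On TPM in 6 libraries neither Flna, at -0.09, nor Trio, at -0.32, was called.

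Selectins recognise sulphated, sialylated and fucosylated sugars. Of 24 genes that build them, 21 were tested, 5 rose and 4 fell. That is 42.9% called, near the 40.1% of all genes tested. Limma on TPM called 5 in 6 libraries and 6 in 8, and the median log2 fold change was 0.06. Gcnt1, the enzyme that starts core 2 branches, fell to 0.220 of its medium level, with 1.56 ± 0.27 CPM in corticosterone and 7.07 ± 0.79 CPM in medium (edgeR adjusted p = 7.4e-08). The sulphotransferase genes Chst1 and Chst2 fell to 0.703 and 0.841, and Tpst1, which sulphates tyrosines, to 0.920. B4galt1, a galactosyltransferase, rose 1.46-fold, B3gnt3, which extends core 1 chains, 1.24-fold, the sialyltransferase gene St3gal1 1.27-fold, the fucosyltransferase gene Fut4 1.37-fold and the core 1 enzyme gene C1galt1 1.11-fold. Limma on TPM did not call Chst2, at -0.098 on the log2 scale on deposited TPM and -0.21 in 6 libraries, and in 6 libraries it did not call Fut4. The calls of Tpst1 and C1galt1 were near the threshold, and for both the CPM of the groups overlap. With 1 library left out, the call of Tpst1 held in 3 of 8 fits and that of C1galt1 in 2 of 8. Both were also lost with the replicate block and in every setting of limma on TPM. Galnt2, not called, had 13.2 and 90.4 CPM in corticosterone replicates 1 and 2 and 146 and 149 CPM in replicates 3 and 4. Its medium level was 136 ± 0.92 CPM. B3gnt2, also not called, had 8.04 CPM in corticosterone replicate 1 and 52.1, 60.4 and 55.1 CPM in replicates 2, 3 and 4. Its medium level was 59.4 ± 1.9 CPM. The part of the effective length model in these counts was not tested.

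Of 22 transcription factor genes known to govern sialomucin, selectin or endothelial genes, 19 were tested, 8 rose and 7 fell, limma on TPM called 13 in 6 libraries and 11 in 8, and the median log2 fold change was -0.03. Sox17, an arterial endothelial factor, rose 2.27-fold, with 230 ± 9.8 CPM in corticosterone and 101 ± 7.9 CPM in medium (edgeR adjusted p = 1.5e-07), and Klf6 rose 1.40-fold. Foxo1 fell to 0.646 and Sox18, a relative of Sox17, to 0.788.

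Mcam and Alcam rose to different degrees. MCAM (CD146) is an endothelial junctional receptor that binds a laminin of the vessel wall and Wnt5a, and ALCAM binds CD6 on T cells. Mcam (ENSMUSG00000032135.15, chr9:44134469-44142727, plus strand) had 727.3, 759.3, 781.4 and 798.2 CPM in corticosterone and 515.0, 547.2, 511.6 and 544.6 CPM in medium. All corticosterone libraries lay above all medium libraries, and Mcam rose 1.45-fold (interval 1.38 to 1.52; edgeR adjusted p = 6.68e-08). Alcam (ENSMUSG00000022636.13, chr16:52248996-52454074, minus strand) had 68.7, 72.5, 69.4 and 71.3 CPM in corticosterone and 57.7, 60.2, 64.7 and 58.3 CPM in medium. The groups did not overlap here either, by a narrower gap, and Alcam rose 1.17-fold (interval 1.11 to 1.24; edgeR adjusted p = 0.000317). The log2 ratio of Mcam to Alcam averaged 3.44 ± 0.05 in corticosterone and 3.14 ± 0.11 in medium, a difference of 0.31 (exact two-sided permutation test, p = 0.0286, adjusted p = 0.0476).

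CD47 tells phagocytes to spare the cell by binding SIRPα, and it takes part in leukocyte passage through endothelium. Cd47 (ENSMUSG00000055447.19, chr16:49800533-49915010, plus strand) had 181.9, 177.9, 184.2 and 180.3 CPM in corticosterone and 148.3, 147.0, 151.0 and 147.9 CPM in medium. The libraries of each group lay close together and the groups were apart. Cd47 rose 1.22-fold (interval 1.18 to 1.26; edgeR adjusted p = 5.23e-07).

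Ligands and partners of CD47, MCAM and ALCAM changed in both directions. Of 22 listed genes 20 were tested, 5 rose and 9 fell, limma on TPM called 11 in 6 libraries and 7 in 8, and the median log2 fold change was -0.0024. Thbs1, the gene of the CD47 ligand thrombospondin-1, fell to 0.258, with 29.4 ± 3.9 CPM in corticosterone and 114 ± 6.7 CPM in medium (edgeR adjusted p = 3.9e-06). Itgb3, the beta chain of the integrin that associates with CD47, rose 3.40-fold, with 990 ± 14 CPM in corticosterone and 292 ± 7.1 CPM in medium (edgeR adjusted p = 7.5e-14). Wnt5a, a ligand of MCAM, rose 2.25-fold and the Wnt receptor gene Fzd4 1.94-fold. The semaphorin receptor gene Plxnd1 rose 1.26-fold and the vinculin gene Vcl 1.40-fold, and Lama4, a chain of that laminin, fell to 0.832, a call that limma on deposited TPM did not make (log2 -0.13).

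Some receptors usually found on leukocytes were measured. Of 12 such genes, 5 could be tested, 2 rose and 2 fell, limma on TPM called 3 in 6 libraries and 2 in 8, and the median log2 fold change was 0.36; the leukocyte marker Ptprc stood at 0.0580 ± 0.067 CPM in corticosterone and 0.0662 ± 0.031 CPM in medium. Itgb2, the common beta chain of LFA-1, had 1.99, 1.70, 1.09 and 1.52 CPM in corticosterone and 0.254, 0.221, 0.10 and 0.174 CPM in medium, summing to 187 and 25 counts in those groups. It rose 7.83-fold (interval 4.96 to 12.4; edgeR adjusted p = 5.99e-06). Itgal, the alpha chain of LFA-1, had 5.76 ± 0.40 CPM in corticosterone and 2.53 ± 0.58 CPM in medium, a 2.26-fold rise (edgeR adjusted p = 4.0e-05). Itga4, the alpha chain of the VCAM-1 receptor, had 85.1 ± 1.4 CPM in corticosterone and 114 ± 2.4 CPM in medium, a fold of 0.747; limma on deposited TPM did not call it (log2 -0.24). Sirpa, the CD47 receptor, had 44.5 ± 1.2 CPM in corticosterone and 64.0 ± 3.2 CPM in medium, a fold of 0.695. Both chains of the ICAM receptor rose, whereas Icam1 and Icam2 did not pass the test.

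Of 26 other endothelial adhesion genes 22 were tested, 8 rose and 7 fell, limma on TPM called 13 in 6 libraries and 8 in 8, and the median log2 fold change was 0.08. Lgals3, which encodes the sugar-binding galectin-3, rose 3.25-fold, with 21.1 ± 0.37 CPM in corticosterone and 6.51 ± 0.65 CPM in medium (edgeR adjusted p = 9.3e-10), and the junctional gene Esam rose 1.44-fold. Aoc3, which encodes vascular adhesion protein 1, fell to 0.309, with 1.40 ± 0.11 CPM in corticosterone and 4.53 ± 0.31 CPM in medium (edgeR adjusted p = 2.3e-07). The hyaluronan receptor gene Cd44 fell to 0.701.

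Many of these molecules are cut from the cell surface. Of 15 sheddase genes, regulators and gamma-secretase genes, all tested, 8 rose and 2 fell, limma on TPM called 5 in 6 libraries and 5 in 8, and the median log2 fold change was 0.10. Adam15 rose 1.70-fold, with 479 ± 8.7 CPM in corticosterone and 282 ± 9.5 CPM in medium (edgeR adjusted p = 4.5e-10). Timp3, an inhibitor of metalloproteinases, rose 1.69-fold. Adam8 fell to 0.718 and Rhbdf1, a guide of ADAM17 to the surface, to 0.911, though limma on TPM did not call Rhbdf1 (-0.069 on the log2 scale on deposited TPM and -0.11 in 6 libraries). Adam10 and Adam17, chosen for their known part in shedding after their values were seen, had folds of 1.00 and 1.09 (edgeR adjusted p = 0.99 and 0.0099). Sequence shared with other annotated genes was high for Rac1, with 48.7% of 31-base words in no other gene, and lower for Vcl at 74.7%, Timp3 at 78.1%, Adam15 at 81.8% and Sox17 at 84.3%.

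**Figure D4:**
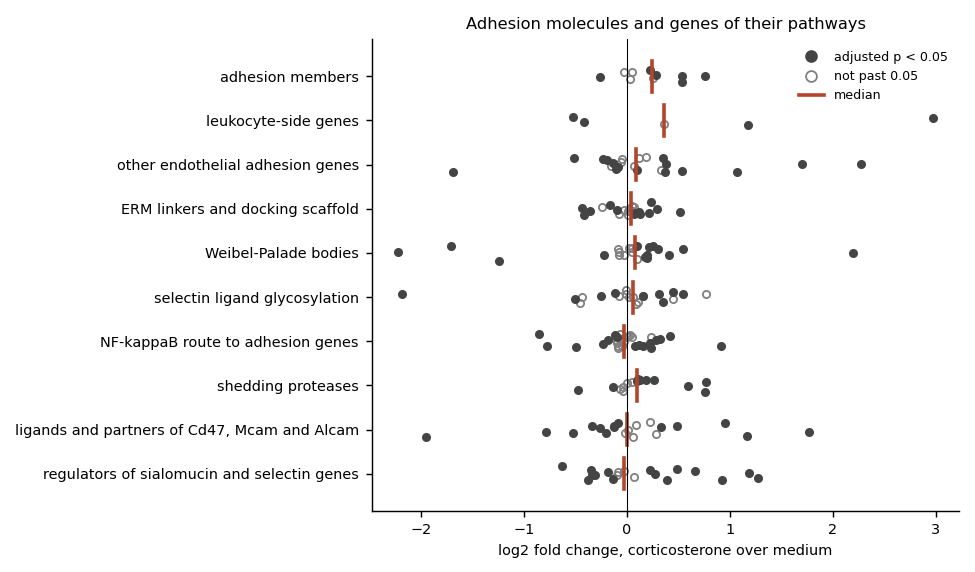
Log2 fold change, corticosterone over medium, of every tested gene of the 10 adhesion genes and of the 9 lists around them; filled points passed an adjusted p of 0.05 and the bar is the median. The 9 lists together held 192 genes, of which 173 were tested and 109 called, beside 40.1% called of all genes tested. Each list held genes called in both directions, and the share called ran from 42.9% to 80%.

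Levels can be compared between genes only per length, and only in the 6 libraries of 1 effective length model (corticosterone replicates 3 and 4 and the 4 medium replicates). In TPM, abundance per 1e+06 transcripts, the order in medium was Cd34 (768 ± 2.9), Mcam (378 ± 12), Icam2 (348 ± 5.8), Cd47 (113 ± 3.8), Podxl (102 ± 1.3), Selp (64.7 ± 1.4), Alcam (42.3 ± 2.0), Vcam1 (21.3 ± 1.7), Sele (21.2 ± 1.2) and Icam1 (1.18 ± 0.15), given as mean ± SD over n = 4. Vcam1 and Sele did not differ beyond their spread, while the other neighbours in that order were apart. In the 2 corticosterone libraries Podxl, at 177 and 163 TPM, stood above Cd47, at 137 and 135 TPM, which reverses their order in medium. Mcam, at 604 and 586 TPM, lay just below Cd34, at 614 and 611 TPM. With 2 corticosterone libraries these levels are a description.

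**Figure D5:**
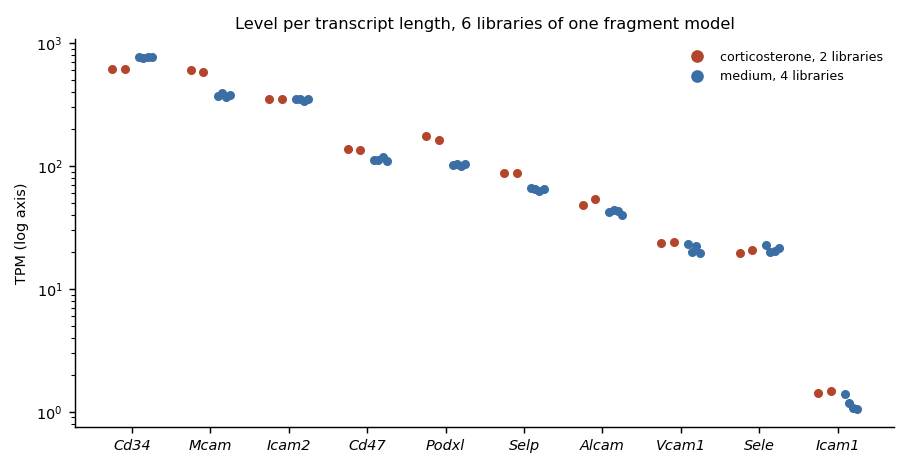
TPM on a log axis of the 10 adhesion genes in the 6 libraries of 1 effective length model, corticosterone replicates 3 and 4 at the left of each pair and the 4 medium libraries at the right. Genes run from Cd34, the highest in medium, to Icam1, the lowest; Podxl lies above Cd47 with corticosterone and below it in medium.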

How the data were processed

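Poly(A)-selected, directional RNA-seq libraries of bEnd3 cells were analysed, 4 with corticosterone and 4 in medium, grouped by titles and treatment field. The submitters' processing notes name bcl2fastq, kallisto 0.46.1 and the builds mm10 and GRCm38; the read length, the transcript index and other settings are not stated there. A gene table of estimated counts, without normalization, was deposited by the authors. The authors also deposited transcript tables with estimated counts, effective lengths and TPM, which per the file headers are kallisto's. Summed over transcripts in GENCODE M21, which held 97.3% of them, the counts equalled the gene table within 0.5 counts for 99.997% of genes.

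Gene positions are from GENCODE M21 on GRCm38. Estimated counts were rounded and fitted with edgeR 4.0.16 (R 4.3.3): filterByExpr, TMM, robust quasi-likelihood test with group as the single term. CPM are TMM-scaled. Fold intervals and SE are the fit's; they cover the spread of these libraries. Transcripts were fitted likewise. Alternatives used DESeq2 1.42.0, limma 3.58.1 on log2(TPM + 0.5), and diffSpliceDGE. Transcripts of at least 10% of their gene had their shares tested by exact permutation.

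The 10 genes and the lists were chosen with earlier results of these data known, and a pattern seen before has no independent support here. Besides the 10 genes, the text names from each list the 2 called genes of smallest p in each direction, or all where 5 or fewer were called. A few others were chosen by role, or because single libraries stood apart, after their values were seen. A listed transcription factor gene was not analysed here, and some results on listed genes are not reported here. Protein sequences were not used here.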

Additional observations from a re-analysis of the deposited data

Results flagged for a closer look

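Single libraries stood apart from the other 3 of their group in 11 of 144 groups of values searched, by a gap that made up most of the group's range (Dixon's test); chance flags about 1 in 20 groups. Of transcript shares, Mcam-202 held 50.2% of Mcam counts in corticosterone replicate 1, Cd34-202 held 44.6% of Cd34 counts in corticosterone replicate 2, and Vcam1-203 held 25.7% of Vcam1 counts in corticosterone replicate 2. These are the libraries of the other effective length model; its part in the shares was not tested. None of the 10 adhesion genes was flagged at the level of the gene.

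Among the genes around them, corticosterone libraries stood apart for Rab3d (19.99 CPM in replicate 2), Chst2 (23.2 CPM in replicate 2), Rhbdf1 (77.9 CPM in replicate 1) and Sox18 (278 CPM in replicate 3). Medium libraries stood apart for Itga4 (110 CPM in replicate 2), Lgals3 (7.49 CPM in replicate 4), Flna (1495 CPM in replicate 3) and Lama4 (80.1 CPM in replicate 1). For each of these 8 genes the groups still did not overlap.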

How the results depend on the processing

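Each of the 6 calls among the adhesion genes held with DESeq2, library size alone, no filter, every library left out in turn, 6 libraries, a term for corticosterone replicates 1 and 2, and TPM in 6 libraries. The genes called numbered 4753 to 5089 with 1 library left out, 4975 with DESeq2 and 4485 with that term. On deposited TPM they numbered 1515, or 1517 with a pseudocount of 0.1 and 1264 with no filter; 974 with 1 effective length per transcript; and 2743 on TPM in 6 libraries. The genes of the 9 lists called were 55, 55, 49, 34 and 70 in those settings. Different effective length models underlie the TPM of the 8 libraries.

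With 1 effective length, which moved the median of all genes by -0.17 on the log2 scale, Selp (0.34), Mcam (0.46), Alcam (0.082) and Cd47 (0.094) lost their calls and Icam1 turned to -0.0031. On deposited TPM, Cd34 (-0.13 in all 3 settings) lost its call and Sele turned to 0.057 in all 3. Sele ranged from -0.051 to 0.0011 with 1 library left out, the second without medium replicate 1. Flna turned to 0.082 in all 3 settings of deposited TPM and C1galt1 to -0.10 with 1 effective length. The causes were not tested.

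Differences between paired genes kept their sign, except for Icam1 and Vcam1 on deposited TPM, but with fewer libraries the smallest possible p exceeds 0.05. With 1 library left out they were 0.53 to 0.59 for Selp and Sele, 0.99 to 1.04 for Podxl and Cd34, and 0.25 to 0.33 for Mcam and Alcam (exact permutation p = 0.0571 each). In 6 libraries they were 0.51, 1.05 and 0.35 (exact permutation p = 0.133). On deposited TPM of all 8 libraries, Mcam and Alcam gave 0.29 and did not pass (exact permutation p = 0.0571, where the smallest possible is 0.0286). The difference of Icam1 and Vcam1 turned to -0.065 there. The Vcam1-203 share differed by 9.83 to 13.2 points with 1 library left out (exact permutation p = 0.0571) and by 12.8 in 6 libraries.

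Transcripts of the adhesion genes called ranged from 2 to 6 with 1 library left out: 6 without corticosterone replicate 1 and 5 without replicate 2. In 6 libraries 9 were called. Alcam-201 turned to 0.074, 0.0057, 0.0036 and 0.14 without corticosterone replicate 1, corticosterone replicate 2, medium replicate 3 and both corticosterone libraries. Alcam-205 turned to -0.046 and -0.058 without corticosterone replicate 1 and without both. Cd47-207 ranged from -0.41 to 0.40 with 1 library left out and was 0.18 without both, and Icam2-201 turned to 0.021 without both.

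The groups share replicate numbers. Deviations of same-numbered libraries correlated at -0.042, 0.026, -0.10 and -0.019, and those of differently numbered libraries at -0.089 to 0.12. Same-numbered libraries thus did not visibly deviate together. Such correlations cannot tell whether the cultures were paired, which the labels do not state. With the replicate block 4913 genes were called, all 6 calls among the adhesion genes held, 1 of their transcripts was called, and the 3 pair differences were 0.56, 1.02 and 0.31 (exact permutation p = 0.125, the smallest possible).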
